A study of Homo sapiens with 12 samples.

Results

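The genes described here encode the insulin-like growth factor (IGF) binding proteins IGFBP2 to IGFBP7, the receptors IGF1R and INSR, and the ligand IGF2. They were chosen by symbol, as 9 of the 36433 gene symbols in the expression table, and 8 of the 9 had enough signal to be tested. RNA levels were read by sequencing in HMEC-1, an established line of immortalised human dermal microvascular endothelial cells grown in EBM-2 medium with the EGM-2 supplement kit. The cells received a synthetic mimic of miR-126, miR-143 or miR-150, or a non-targeting scrambled RNA as the control, each at 50 nM with the lipid reagent Lipofectamine RNAiMAX, and RNA was collected 48 h later. All 4 groups therefore share the transfection, and each holds 3 libraries, numbered 2 to 4. The study's title places the 3 miRNAs in retinal angiogenesis, whereas the cells are a single dermal line, and the labels do not say whether libraries of a group came from separate cultures. The p-values below therefore reflect how far these libraries scatter, and that scatter may be purely technical.

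IGFs are peptide hormones that promote growth and survival through IGF1R, a receptor tyrosine kinase, and through the insulin receptor INSR. Secreted IGF binding proteins hold IGFs outside the cell, prolonging their life or keeping them from the receptor, and proteases that cut a binding protein release its IGF. IGFBP7 binds IGFs only weakly and is best known as a matrix and vessel protein. Adaptors such as IRS1 pass the receptor's signal to PI3K and AKT.

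The mimics are copies of miRNAs that guide silencing complexes to messenger RNAs, mainly by pairing of their seed (bases 2 to 8) with a 3′ UTR. The mature sequence of miR-150 was missing from the reference used, so no match to miR-150 was searched for. Those of miR-126 and miR-143, the mimics with which IGFBP5 fell, are shown. Each is printed 5′ to 3′ from RefSeq (GRCh38.p14) with the seed in capitals, and both arms are given since the labels do not name the arm of the mimic.
hsa-miR-126-3p: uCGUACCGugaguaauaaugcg
hsa-miR-126-5p: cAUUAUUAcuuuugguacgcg
hsa-miR-143-3p: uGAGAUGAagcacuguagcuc
hsa-miR-143-5p: gGUGCAGUgcugcaucucuggu
The 4 seeds differ, so no seed is shared between the arms shown. The longest annotated 3′ UTR of each of the 9 genes was searched on its transcribed strand for the seed's complement, namely CGGTACG for miR-126-3p, TAATAAT for miR-126-5p, TCATCTC for miR-143-3p and ACTGCAC for miR-143-5p. CGGTACG was in none of the 9, and among 12429 tested genes with an annotated 3′ UTR it was in 37 (0.298%). TCATCTC was in the 3′ UTRs of IGFBP5, IGFBP2 and IGFBP3, against 14.4% of the 12429. These 3 sites are shown because they can be set beside the genes' response to the miR-143 mimic, and capitals mark the match.
IGFBP5: aggacgccactcattTCATCTCattt
IGFBP2: gggggaccccgagtgTCATCTCttct
IGFBP3: ggcaaagctttatttTCATCTCtcat
The IGFBP5 window lies at chr2:216676650-216676675 on the minus strand (GRCh38), in exon 4 of 4. Its match begins at base 91 of a 3′ UTR of 4646 nt and is followed by an A, which sits opposite base 1 of the miRNA. The IGFBP2 window (chr2:216664029-216664054, plus strand) is in exon 3 of 3 of the transcript IGFBP2-203, which held 10.6% to 23.9% of IGFBP2 TPM. The IGFBP3 window (chr7:45912923-45912948, minus strand) is in exon 6 of 6. Neither has that A. The other matches to bases 2 to 8 were a TAATAAT in IGFBP3 and an ACTGCAC in IGF1R, motifs held by 19.9% and 18.2% of genes. Matches to bases 2 to 7 followed by an A, counted apart, numbered 1 in IGFBP5 (miR-143-5p), 1 each for miR-126-3p and miR-143-3p in IGF1R, and 1 each for both miR-143 arms in IGF2. A match is a description of letters and not evidence of binding.

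TPM is a measure of transcript abundance scaled for transcript length and library total, and it allows comparison between genes. By TPM, the control cells carried much RNA of the binding proteins other than IGFBP3, and little of the receptors IGF1R and INSR. IGFBP7 averaged 346 ± 43.7 TPM (SD, n = 3) and IGFBP4 330 ± 68.6 TPM, and their libraries overlapped. IGFBP2 (180 ± 31.9 TPM), IGFBP6 (149 ± 52.9 TPM) and IGFBP5 (127 ± 16.5 TPM) followed, each overlapping the next. IGFBP5 at that level stood above 89.7% of tested genes. IGF1R had 11.8 ± 1.66 TPM and overlapped IGFBP3 at 8.06 ± 4.36 TPM, INSR had 4.10 ± 0.224 TPM, and IGF2 had 0.289 ± 0.126 TPM. The same 9 genes kept this order in the miR-126 and miR-143 groups; with miR-150 IGFBP6 and IGFBP2 changed places within their overlap.

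**Figure D1:**
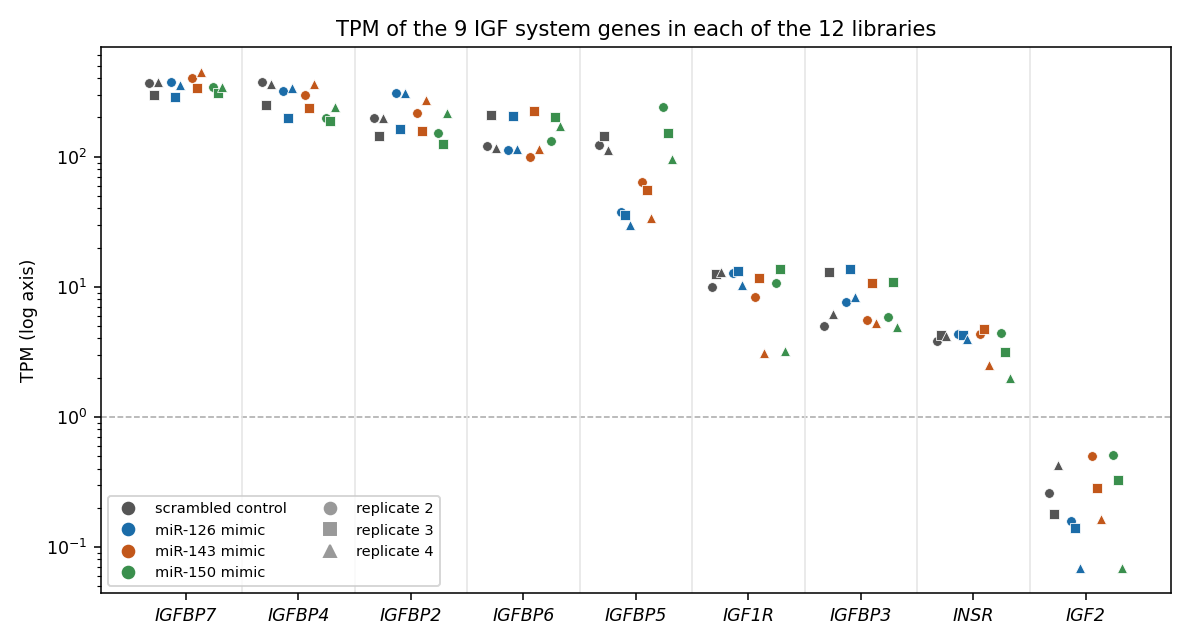
TPM of the 9 genes in each of the 12 libraries on a log axis, with colour for the group and symbol for the replicate number; the dashed line is the 1 TPM used as the minimum. IGFBP5 is the gene whose miR-126 and miR-143 libraries all sit below its 3 control libraries, and IGF2 is under 1 TPM throughout.

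Libraries were compared with limma on log2(TPM + 1), over the 13750 genes that reached 1 TPM in 3 or more libraries, with two-sided p-values adjusted by Benjamini-Hochberg and a threshold of 0.05. The share of all tested genes past that threshold was 5.11% for miR-126 against the control, 3.32% for miR-143 against the control and 3.32% for miR-150 against the control. Between mimics it was 2.52% where miR-126 was set against miR-143, 3.91% where miR-126 was set against miR-150, and 2.19% for the pair of miR-143 and miR-150. Among all genes, miR-126 libraries were higher by a median of 0.10 on the log2 scale and miR-150 libraries lower, with a median of -0.11. Replicate 4 of miR-143 and replicate 4 of miR-150 stood apart: their deviations from the gene means fell with transcript length (Spearman rho across genes -0.398 and -0.547, against -0.008 to 0.289 in the other 10 libraries). Replicate 4 of miR-150 also had the largest share of ribosomal protein RNA, 24.0%, against 13.5% to 17.9% elsewhere. Values without these 2 libraries are given for IGFBP5 with miR-143, IGF1R with miR-143 and miR-150, PLAU, HTRA1 and PIK3R2. INSR, IGF2R and IGFBP5 with miR-150 are given with these libraries included. All 14 endothelial markers looked for were present at a mean of at least 1 TPM in every group.

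IGFBP5 is a binding protein that also attaches to extracellular matrix. In the main fit, with group as sole term, it was the only member past the threshold in any comparison. With the replicate number added as a block, IGFBP2 and IGFBP4 also passed in some comparisons, as given below. That fit called 9.75% to 18.9% of all tested genes. In the main fit IGFBP5 fell with the miR-126 mimic and with the miR-143 mimic, and not with the miR-150 mimic. That is 1 of 8 tested members lower and 0 higher for miR-126, the same for miR-143, and 0 of 8 for miR-150, where 1 of 8 had an unadjusted p under 0.05 in limma, as did 17.4% of all tested genes. These counts rest on a single gene, and against the background above they say nothing of the family.

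The control libraries held 123, 145 and 113 TPM of IGFBP5 (replicates 2, 3 and 4), and the miR-126 libraries 37.8, 35.6 and 29.6 TPM. The miR-143 libraries held 63.5, 55.5 and 33.7 TPM. All 6 libraries of these mimics were below all 3 controls. The groups did not overlap for 34.1% of all tested genes with miR-126 against the control and for 25.3% with miR-143. The miR-150 libraries held 243, 151 and 95.6 TPM, with replicates 2 and 3 above all 3 controls and replicate 4 below them. That replicate 4 is a library in which long transcripts were low, and the transcript IGFBP5-201 is 6215 nt long. The cause of its low value was not tested. Less IGFBP5 RNA per cell and fewer cells that express it cannot be told apart in bulk RNA.

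**Figure D2:**
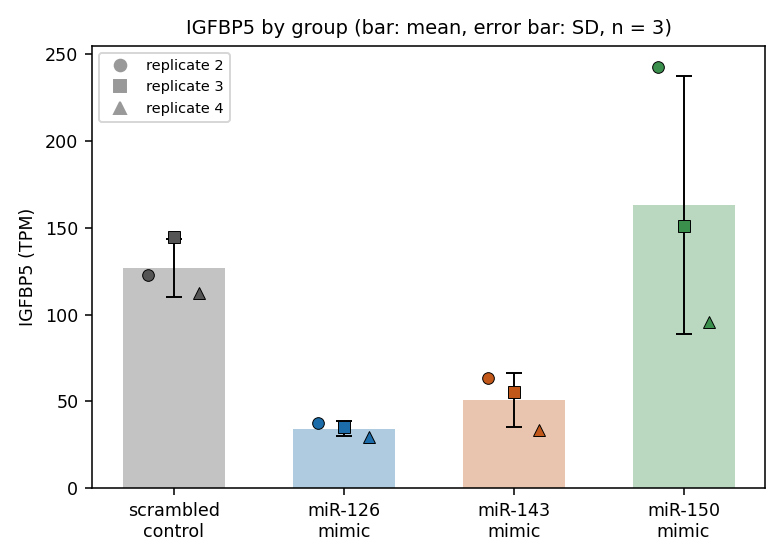
IGFBP5 in TPM by group, where bars are means, error bars the SD of 3 libraries and symbols single libraries. The miR-126 libraries (29.6 to 37.8 TPM) and miR-143 libraries (33.7 to 63.5 TPM) lie below the controls (113 to 145 TPM), and the miR-150 libraries spread from 95.6 to 243 TPM.

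The mean IGFBP5 level was 34.3 ± 4.27 TPM with miR-126 against 127 ± 16.5 TPM in the control, a log2 fold change of -1.85 with an SE of 0.304 (adjusted p = 0.00628, limma). It stayed past the threshold in all 15 alternative analyses, with adjusted p up to 0.0379. With miR-143 the mean was 50.9 ± 15.4 TPM, a log2 fold change of -1.34 with an SE of 0.304 (adjusted p = 0.0365, limma). That call was lost when any 1 of the 6 libraries of the comparison was left out (adjusted p from 0.0515 to 0.141), and with no filter on low values (0.0797). Without both libraries that stood apart, which leaves 2 miR-143 libraries, the value was -1.08 with an adjusted p of 0.0171 in limma. The replicate block gave an adjusted p of 0.00278, though the numbers were not taken to pair the libraries of this comparison. With miR-150 the mean was 163 ± 74.2 TPM and the log2 fold change 0.27 (SE 0.304, adjusted p = 0.699, limma), and it ranged from -0.07 to 0.60 over the alternatives.

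Between mimics, IGFBP5 was lower with miR-126 than with miR-150 by a log2 difference of -2.12 (adjusted p = 0.00414, limma). The libraries did not overlap, as for 25.9% of all tested genes. IGFBP5 in the miR-143 group is compared next. IGFBP5 was also lower with miR-143 than with miR-150, by -1.61 (adjusted p = 0.0197, limma). Both differences lost the threshold when only the 2 groups compared were fitted (adjusted p = 0.071 and 0.244). The second was also lost without replicate 4 of miR-143 (0.0773) and without replicate 2 of miR-150 (0.0604). With the replicate block both differences passed the threshold (adjusted p = 0.000299 and 0.00159, limma). IGFBP5 in the miR-126 and miR-143 groups differed by -0.51 (SE 0.304, adjusted p = 0.439, limma), and their libraries overlapped. With each library's trend on transcript length removed, this difference was -0.76 with an adjusted p of 0.0169. The comparisons against the control share the control libraries, so their values are given side by side and their likeness is no separate result.

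The 3 genes whose log2 levels followed IGFBP5 most closely over the 12 libraries were UBE2V2 (Pearson r = 0.948), PM20D2 (r = 0.942) and NEK4 (r = 0.923). The points share the groups and library scaling, so the correlations are descriptions. PM20D2 averaged 18.3 TPM in the control, 3.34 with miR-126, 6.97 with miR-143 and 18.0 with miR-150. UBE2V2, a ubiquitin-conjugating enzyme variant, averaged 140, 104, 118 and 141 TPM in the same order. NEK4, a protein kinase, averaged 17.3, 8.38, 11.4 and 15.1 TPM.

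Fibroblasts and pericytes also express IGFBP5. The summed level of the 12 markers listed for them was 110.4 to 146.1 TPM in the control libraries, 92.5 to 121.4 with miR-126, 68.4 to 84.4 with miR-143 and 47.5 to 87.0 with miR-150. Of the 12, 8 averaged at least 1 TPM over the 12 libraries, led by COL1A2 (25.1 TPM), TAGLN (21.6 TPM), COL1A1 (14.0 TPM), ACTA2 (11.0 TPM) and RGS5 (10.2 TPM), and COL3A1, PDGFRA, DCN and LUM averaged less. Summed levels of 4 lymphatic endothelial markers were 137.4 to 147.2 TPM in the control and 62.7 to 111.2 TPM across the mimic groups. The 7 epithelial markers, of which KRT18 made up most (mean 673 TPM), summed to 449.1 to 633.9 TPM in the control, 525.8 to 579.5 with miR-126, 731.3 to 952.2 with miR-143 and 902.4 to 1027.2 with miR-150. The 5 leukocyte markers, led by CD68 (44.1 TPM), summed to 29.5 to 48.2 TPM in the control, 50.8 to 70.0 with miR-126, 42.3 to 62.1 with miR-143 and 27.4 to 59.2 with miR-150. The epithelial sums of miR-143 and miR-150 and the leukocyte sum of miR-126 thus lay above the control without overlap. The part of any of these genes in the IGFBP5 result was not tested.

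IGFBP5 lies at chr2:216672105-216695525 on the minus strand (GRCh38, GENCODE), tail to tail with IGFBP2 at chr2:216632828-216664436 on the plus strand, and 7.67 kb separates their ends. IGFBP2, a binding protein abundant in blood that also binds integrins, was not past the threshold in any comparison of the main fit. Its mean was above that of the control with the 2 mimics with which IGFBP5 fell. IGFBP2 had 197, 143 and 199 TPM in the control libraries (replicates 2, 3 and 4) and 306, 164 and 310 TPM with miR-126. Replicates 2 and 4 with miR-126 were above all controls, while replicate 3 was within their range. With miR-143 IGFBP2 had 217, 159 and 270 TPM, and with miR-150 152, 125 and 215 TPM, both overlapping the control. The log2 fold change with miR-126 was 0.49 (SE 0.285, adjusted p = 0.388, limma). Same-numbered libraries deviated together in this comparison, and a fit with that number as a block gave an adjusted p of 0.0218. The difference of IGFBP2 between miR-126 and miR-150 was 0.65, with an adjusted p of 0.218 that became 0.00778 with the block.

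IGFBP4 (chr17:40443461-40457731, plus strand) encodes a binding protein that is cut by the protease PAPPA. It had 377, 252 and 362 TPM in the control libraries and 200, 188 and 240 TPM with miR-150. The miR-150 libraries were all below the controls, a separation that 21.5% of all tested genes showed in this comparison, where 3.32% were past the threshold. The log2 fold change was -0.64 (SE 0.228, adjusted p = 0.164, limma), which did not pass the threshold. With the replicate block the adjusted p was 0.00591, though the numbers were not taken to pair the libraries of this comparison. With miR-126 IGFBP4 had 318, 200 and 336 TPM, and with miR-143 300, 237 and 364 TPM, overlapping the controls in both. Against miR-150, IGFBP4 was higher by 0.41 with miR-126 (adjusted p = 0.305, with the block 0.0273, limma) and by 0.51 with miR-143 (adjusted p = 0.345, with the block 0.0185, limma).

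IGFBP7 (chr4:57030773-57110385, minus strand) had the highest mean of the members in each group. Its control libraries had 371, 296 and 372 TPM, and all 12 libraries were between 289 and 446 TPM. Its log2 fold changes were -0.03 with miR-126, 0.19 with miR-143 and -0.06 with miR-150 (SE 0.140 for each, adjusted p from 0.554 to 0.946, limma).

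IGFBP6 (chr12:53097436-53102345, plus strand), which prefers IGF2 over IGF1 as its ligand, and IGFBP3 (chr7:45912245-45921874, minus strand), the main carrier of IGFs in blood, were not past the threshold in any comparison. IGFBP6 had 121, 210 and 117 TPM in the control libraries, and its 3 log2 fold changes against the control were between -0.07 and 0.20. IGFBP3 had 4.98, 13.1 and 6.17 TPM in the control libraries and 5.57, 10.7 and 5.22 TPM with miR-143, and the groups overlapped. Its log2 fold change with miR-143 was -0.11 (SE 0.388, adjusted p = 0.922, limma), and with miR-126 it was 0.32 (adjusted p = 0.732, limma).

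**Figure D3:**
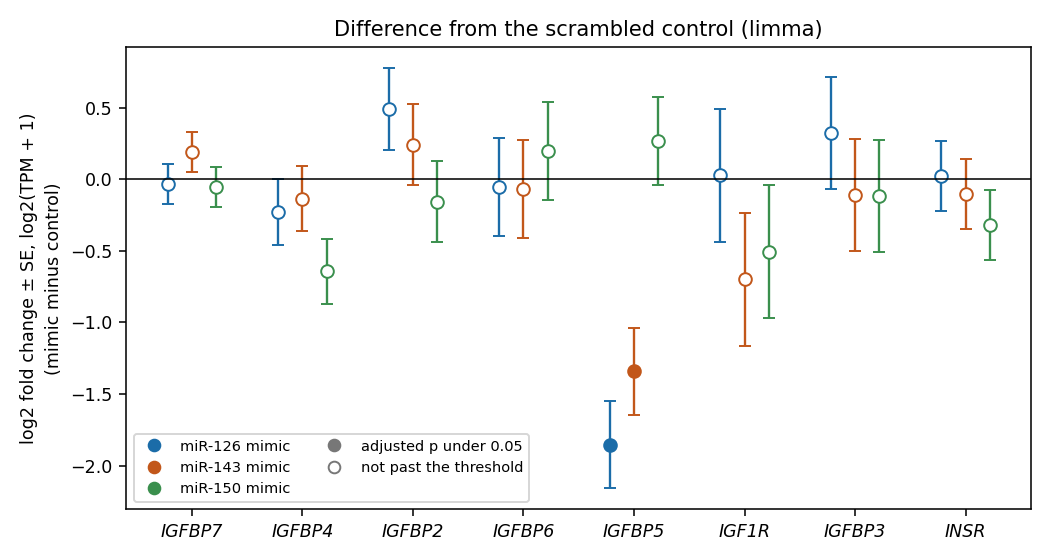
Log2 fold change of the 8 tested genes for each mimic against the scrambled control, with the SE from limma; filled points have an adjusted p under 0.05. IGFBP5 with miR-126 (-1.85) and miR-143 (-1.34) are the filled points, and the next lowest fold changes are IGF1R with miR-143 (-0.70) and IGFBP4 with miR-150 (-0.64).

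Apart from IGFBP5, each binding protein had its highest or its lowest library of every group in replicate 3. IGFBP2, IGFBP4 and IGFBP7 were lowest in replicate 3 in all 4 groups, as were 9.51% of tested genes, and IGFBP3 and IGFBP6 were highest in replicate 3 in all 4 groups, as were 18.9%. IGFBP6 had 200 to 225 TPM in the replicate 3 libraries and 99.5 to 171 TPM in the others. IGFBP3 had 10.7 to 13.8 TPM in the replicate 3 libraries and 4.87 to 8.31 TPM in the others. IGFBP5 did not follow this pattern and was highest in replicate 3 in 1 of 4 groups. The labels do not say what the numbers mark.

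IGFBP5 took a smaller part of the binding protein RNA in the miR-126 and miR-143 libraries. The TPM of the 6 binding proteins summed to 1059 to 1194 in the control libraries, 909 to 1154 with miR-126, 1022 to 1234 with miR-143 and 981 to 1076 with miR-150. IGFBP5 made up 9.65% to 13.7% of that sum in the control libraries, 2.56% to 3.91% with miR-126, 2.73% to 5.81% with miR-143 and 8.94% to 22.5% with miR-150. IGFBP4 made up 23.8% to 31.6% in the control libraries and 18.6% to 22.4% with miR-150. These shares restate the TPM above and add no test.

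**Figure D4:**
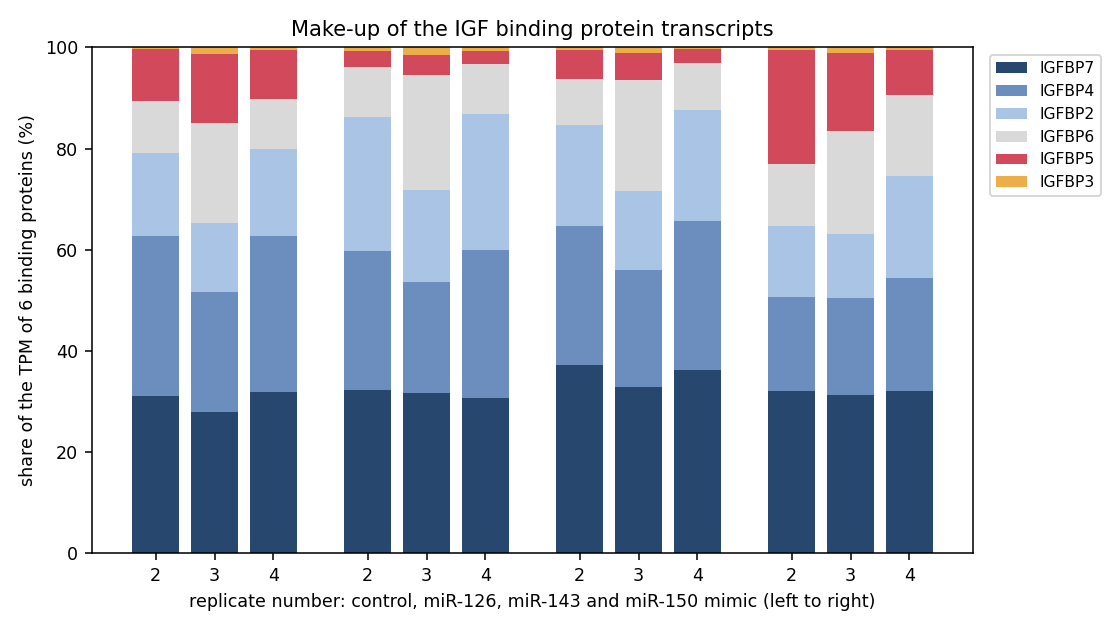
Share of each binding protein in the summed TPM of the 6, in percent, with a bar for each library ordered by group and replicate number. The IGFBP5 part is 2.56% to 5.81% in the miR-126 and miR-143 libraries and 8.94% to 22.5% in the control and miR-150 libraries.

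The receptors were not past the threshold in any comparison. IGF1R (chr15:98648539-98964530, plus strand) had 9.93, 12.5 and 13.1 TPM in the control libraries and 12.7, 13.2 and 10.3 TPM with miR-126. With miR-143 it had 8.26, 11.8 and 3.09 TPM, and with miR-150 10.7, 13.6 and 3.22 TPM. In both of these groups the low value is replicate 4, the library in which long transcripts were low. The transcript IGF1R-201, which held 14.47% to 86.35% of IGF1R TPM, is 11803 nt long. The cause of the low values was not tested. The log2 fold change of IGF1R with miR-143 was -0.70 (SE 0.464, adjusted p = 0.501, limma), and without both of those libraries it was -0.23 (adjusted p = 0.581). With miR-150 it was -0.51 (adjusted p = 0.618, limma), and without both libraries 0.04 (adjusted p = 0.949).

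INSR (chr19:7112255-7294034, minus strand) had 3.84, 4.26 and 4.20 TPM in the control libraries and 4.36, 4.25 and 3.95 TPM with miR-126. It had 4.35, 4.70 and 2.51 TPM with miR-143 and 4.42, 3.17 and 2.00 TPM with miR-150, and replicate 4 was again the lowest of both groups. Its log2 fold changes against the control were between -0.32 and 0.02 (adjusted p from 0.542 to 0.979, limma). IGF2R, which clears IGF2 from the cell surface and carries no kinase, was at 87.4 ± 8.10 TPM in the control. It had 45.7 and 35.6 TPM in replicate 4 of miR-143 and of miR-150.

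IGF2 (chr11:2129112-2149603, minus strand), a growth factor ligand, was below the minimum and was not tested. It had 0.260, 0.180 and 0.427 TPM in the control libraries and between 0.068 and 0.508 TPM in the mimic libraries. The symbol covers 2 overlapping Ensembl genes, and INS-IGF2, a read-through gene that shares exons with IGF2, was listed at 0 in 11 of 12 libraries. The other ligand IGF1 averaged 0.108 TPM in the control. The ligands were thus near the lower end of the table in all groups, while both receptors and 6 binding proteins were above 1 TPM in every library.

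Transcript values add to the gene sums, with the caution that assigning reads among overlapping transcripts carries an error that the table does not hold. IGFBP5 came almost wholly from IGFBP5-201, the coding transcript with the TCATCTC site, which held 98.7% to 100% of its TPM in every library. IGFBP7, whose sum was not past the threshold, was split between the coding IGFBP7-201 and the processed transcript IGFBP7-202. IGFBP7-201 made up 30.1%, 30.4% and 29.9% of IGFBP7 in the control libraries (replicates 2, 3 and 4) and 42.6%, 41.7% and 44.7% with miR-126. It made up 30.8%, 44.3% and 45.2% with miR-143 and 37.9%, 38.4% and 54.3% with miR-150, so all 9 mimic libraries were above all 3 controls. The margin of replicate 2 of miR-143 was small, and the shift was not tested. How many other transcripts shift in this way was not counted. For gene levels, 34.1% (miR-126), 25.3% (miR-143) and 21.5% (miR-150) of all tested genes did not overlap the control. The long INSR-202, whose coding sequence is 36 nt shorter than that of INSR-201, made up 56.7% to 70.9% of these 2 INSR transcripts in the control libraries and 49.7% to 61.7% with miR-126. It made up 70.3% to 95.3% with miR-143 and 52.6% to 100% with miR-150, at levels of 0.993 to 3.96 TPM that make such shares uncertain.

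In the wider pathway, 44 of 54 listed genes were tested, and STC1, PLAT, HTRA1 and PLAU passed the threshold against the control. With miR-126 1 of 44 was higher and 1 lower, with miR-143 0 and 1, and with miR-150 0 and 2, and the median log2 fold change of the 44 was -0.05, -0.13 and -0.24 in these comparisons. Those counts are near the background of 5.11%, 3.32% and 3.32%. They depended on the processing. With miR-126 3 were higher and 6 lower under median centring, where that fit called 901 of all 13750 tested genes. With the length trend removed 4 were higher and 8 lower, where 1477 of the 13750 were called. With no filter 0 passed with miR-143 and with miR-150, where 382 and 376 genes were called. With miR-150 0 also passed under median centring and with only the 2 groups compared, where 582 and 57 genes were called. Between mimics 0 of 44 passed in limma, and 3 (miR-126 against miR-143), 8 (miR-126 against miR-150) and 4 (miR-143 against miR-150) had an unadjusted p under 0.05, as did 16.0%, 21.6% and 14.2% of all tested genes. With the replicate number as a block, 3 were higher and 7 lower for miR-126 against the control, where that fit called 17.0% of all tested genes. The same block gave 2 higher and 1 lower when miR-126 was set against miR-143. It gave 5 and 3 when miR-126 was set against miR-150, and 3 and 0 between miR-143 and miR-150. Over all tested genes the block called 11.0%, 18.9% and 9.75% in these comparisons.

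STC1, a secreted glycoprotein that inhibits the IGFBP protease PAPPA, rose with miR-126. It had 7.57, 10.4 and 7.32 TPM in the control libraries and 21.2, 16.8 and 19.7 TPM with miR-126. The log2 fold change was 1.11 with an SE of 0.245 (adjusted p = 0.0251, limma). The groups did not overlap, as for 34.1% of all tested genes. PLAT, the tissue plasminogen activator, fell from 155 ± 25.4 TPM to 88.9 ± 5.33 TPM with miR-126, a log2 fold change of -0.79 (adjusted p = 0.0092, limma). The STC1 call was lost in 5 of 6 fits that left out a library (adjusted p up to 0.119), and that of PLAT without control replicate 4 (0.056).

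HTRA1, a secreted serine protease that can cut IGFBP5, fell with miR-150. It had 176, 128 and 178 TPM in the control libraries and 79.1, 58.4 and 88.8 TPM with miR-150, a log2 fold change of -1.09 with an SE of 0.230 (adjusted p = 0.0263, limma). It had 119, 80.2 and 130 TPM with miR-126, a log2 fold change of -0.56 with an adjusted p of 0.203, or 0.00132 with the block. PLAU, the urokinase plasminogen activator, fell from 177 ± 24.9 TPM to 96.7 ± 19.7 TPM with miR-143 (log2 fold change -0.87, adjusted p = 0.0315, limma). It also fell to 101 ± 21.7 TPM with miR-150 (-0.81, adjusted p = 0.0417, limma). With miR-126 PLAU was at 117 ± 20.5 TPM (-0.59, adjusted p = 0.10, with the block 0.000571). The HTRA1 call was lost in 4 of 6 fits that left out a library (adjusted p up to 0.134), and each PLAU call in 5 of 6 (up to 0.129 for miR-143 and 0.130 for miR-150). Over all 15 alternatives the HTRA1 call was lost in 7, and that of PLAU in 7 with miR-143 and in 10 with miR-150. Without both libraries that stood apart, PLAU missed the threshold with miR-143 (adjusted p = 0.0618) and with miR-150 (0.0954), while HTRA1 with miR-150 kept it (0.0227).

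Downstream of the receptors, IRS1, the adaptor that links them to PI3K, was not past the threshold: its log2 fold changes were -0.05 with miR-126, 0.02 with miR-143 and -0.07 with miR-150 (SE 0.466 for each). PIK3R2, a regulatory subunit of PI3K known as a target of miR-126, had a mean of 11.0 ± 2.34 TPM with miR-126 against 22.0 ± 0.650 TPM in the control. Its log2 fold change was -0.95 (SE 0.257, adjusted p = 0.0566, limma), which became 0.00703 with the block and 0.00867 without both libraries that stood apart. With miR-143 and miR-150 PIK3R2 had 17.9 ± 5.48 and 22.8 ± 6.91 TPM, and both groups overlapped the control.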

How the data were processed

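RNA was measured in 12 libraries of HMEC-1 cells, 3 for each of 4 groups. The authors deposited TPM for 187626 transcripts, made with kallisto on GRCh38 (hg38) per the submitters' processing notes, which also name FastQC and sleuth. The tools' versions and the annotation were not given in the sources used here. Because TPM keep no read counts, depth is unknown and precision rests on the spread between libraries (median residual SD 0.274 on the log2 scale). TPM do not remove a bias against long transcripts.

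TPM were summed per gene symbol, leaving out 171 transcripts without one. Genes reaching 1 TPM in 3 or more libraries entered limma 3.58.1 (R 4.3.3; moderated by a mean-variance trend; group as sole term; all 12 libraries) on log2(TPM + 1), which understates changes of low genes, with Benjamini-Hochberg adjustment over the 13750 genes within each comparison. The script was tested on simulated data. Positions, UTRs and transcript names came from GENCODE release 29, in which 90.55% of the deposited transcripts were found, and miRNA sequences from RefSeq.

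The members, the 54 pathway genes, the cell type markers and the tests were chosen with earlier results of these data known. Named were all members, the pathway genes past the threshold against the control together with IRS1, PIK3R2, IGF1, IGF2R and INS-IGF2, the 3 genes most correlated with a called member, and transcripts with a mean of at least 1 TPM. Alternatives were a pseudocount of 0.1, no filter, no trend, median centring, quantile normalization, only the 2 groups compared, the replicate number as a block, a transcript length correction, and libraries left out.

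Across genes, residuals of libraries that share a number were correlated in each comparison (replicates 2, 3 and 4). For miR-126 against the control r was 0.289, 0.634 and 0.401. Between miR-126 and miR-143 it was 0.321, 0.664 and 0.365, between miR-126 and miR-150 0.291, 0.547 and 0.284, and between miR-143 and miR-150 0.586, 0.634 and 0.737. The numbers were taken to pair the libraries there, from the data alone. They were not for miR-143 (lowest 0.044) and miR-150 (lowest 0.073) against the control. The main fit left this pairing out in every comparison. For the paired comparisons its SE and adjusted p therefore still hold the deviation that same-numbered libraries share.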

Additional observations from a re-analysis of the deposited data

How the results depend on the processing

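Of 720 member fold changes under an alternative (48 values, 15 alternatives each), 703 kept their side of the threshold, 11 lost it and 6 gained it; 75 changed sign, all among values past the threshold in neither fit. For the 21 pathway values, 31 of 315 lost it and 16 gained it. The replicate block gave 2331 genes and 2 members for miR-126 against the control, 1515 genes for miR-126 against miR-143, 2599 genes and 3 members for miR-126 against miR-150, and 1340 genes and 2 members for miR-143 against miR-150. For miR-143 and miR-150 against the control, where mainly replicate 3 deviated together, the block gave 1775 and 1694 genes, and 1 member each. IGFBP4 with miR-150 then had an adjusted p of 0.00591 in limma. Fits of only the 2 groups compared called 1673, 266 and 57 genes against the control (miR-126, miR-143, miR-150), 187 for miR-126 against miR-143, 19 genes and 0 members for miR-126 against miR-150, and 4 genes and 0 members for miR-143 against miR-150. Leaving out both libraries that favour short transcripts gave 1835 genes (miR-126 against the control), 707 (miR-143 against the control) and 578 (miR-126 against miR-143). Removing the length trend gave 1477, 1041 and 892 genes against the control, 829 genes and 1 member for miR-126 against miR-143, 944 for miR-126 against miR-150 and 610 for miR-143 against miR-150. Quantile normalization gave 764 genes for miR-143 against the control, and no filter gave 0 members there. Leaving out 1 library at a time gave 214 to 472 genes for miR-126, 139 to 339 for miR-143 and 125 to 553 for miR-150 against the control, 77 to 183 for miR-126 against miR-143, 117 to 717 for miR-126 against miR-150 and 127 to 353 for miR-143 against miR-150. Members past the threshold were then 0 to 0 for miR-143 against the control and 0 to 1 for miR-143 against miR-150. The cause of these moves was not tested. Median centring changed the split of calls for miR-126 against the control from 464 higher and 238 lower to 354 and 547, and IGFBP5 there was -1.99; with miR-143 it was -1.29.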
